A study of Mus musculus with 18 samples.

Results

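Control splenic B cells cultured with lipopolysaccharide (LPS) were compared between 48 h and 24 h, with 3 libraries at each time point. The genes described are the 15178 of 16545 in the deposited table that had a value above 0 FPKM (a read level corrected for transcript length and for the number of fragments sequenced) in any of these 6 libraries. The other 1367 genes were listed at 0 in all 6, and 341 genes entered with a highest value of only 0.01 FPKM. The control mice carried 1 copy of a B lineage Cre recombinase allele (Cre/+) and intact *Zbtb24* (Zbtb24 +/+), on the C57BL/6 background, so the control cells too expressed Cre. Their B-CKO littermates had the same Cre with both *Zbtb24* copies floxed (Zbtb24 loxp/loxp), so that Cre deletes the exon with the translation start in the B lineage. B cells were purified from spleen with 1 mouse per replicate, and RNA was taken at day 0, 1 or 2 of LPS culture, given as 0, 24 and 48 h in the study's supplementary material. The mice's age and sex and the LPS dose of these cultures are not given in the sources used here.

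LPS is a cell wall component of gram-negative bacteria that B cells sense through Toll-like receptor 4 and its partners, and it drives them to divide without T cell help. Some of the dividing cells turn into plasmablasts, antibody-secreting cells in which the transcription factor BLIMP-1 (encoded by *Prdm1*) shuts down B cell identity genes and XBP1 enlarges the endoplasmic reticulum (ER). Growth of such blasts rests on MYC-driven ribosome production, on glycolysis and on lipid synthesis for new membranes. The comparison of 48 h with 24 h asks which of these programmes still moved after the first day of stimulation.

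All 6 libraries held B cell RNA. The summed level of 10 defining B cell genes was 2644 to 2836 FPKM at 24 h and 2655 to 2819 FPKM at 48 h. The 14 T cell markers measured summed to 14.5 to 17.1 and 14.7 to 15.9 FPKM, most of it *Lck*, which was 13.3, 11.5 and 11.2 FPKM at 24 h and 12.1, 12.2 and 11.7 FPKM at 48 h, whereas the defining T cell gene *Cd3e* did not exceed 0.15 FPKM in any library. The 7 natural killer markers summed to at most 1.56 FPKM, and the 9 erythroid markers to between 8.42 and 11.7 FPKM. The 15 myeloid markers summed to 7.10 to 8.88 FPKM at 24 h and 10.6 to 13.6 FPKM at 48 h, with 2 rising and 2 falling, and most of the sum came from *Itgam* and *Cd68*, with log2 changes of 0.80 and 0.67, while *Csf1r*, *Cd14*, *Mpo* and *Ly6g* were each at a mean of 0.02 FPKM or less. The part of such cells in the results was not tested. *Zbtb24*, intact in these mice, was 18.3, 18.8 and 15.7 FPKM at 24 h and 13.4, 17.1 and 14.9 FPKM at 48 h, a change of -0.20 ± 0.10 (SE) on the log2 scale (adjusted p = 0.15). Pearson correlations of log2(FPKM + 1) between replicates of a time point lay between 0.998 and 0.999. For genes with very low values, ratios between the first 24 h library and each of the other 5 had medians of 0.889 to 1. Only ratios near 1 were kept for these medians, on 5 to 12 of the 17 to 29 genes compared per library. A large difference in depth could therefore not have been seen, and the absolute depth is unknown.

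Between 24 h and 48 h, 3058 genes rose (20.1% of the 15178 tested) and 3762 fell (24.8%) at an adjusted p under 0.05 in limma, so that 44.9% of all genes tested were called. A change of at least 2-fold on the log2(FPKM + 1) scale was found for 320 rising genes (2.11%) and 81 falling genes (0.534%). The median change of all genes tested was -0.0047 on that scale. Log2 changes below are 48 h minus 24 h on this scale with their standard error (SE), n = 3 libraries per time point, and they understate the fold of genes near 0 FPKM. Without regard to a test, the 3 libraries of 48 h lay wholly above those of 24 h for 3593 genes (23.7%) and wholly below for 4371 (28.8%). Very low genes seldom pass the test: of the 9821 genes averaging 1 FPKM or more over the 6 libraries, 24.4% rose and 35.6% fell. The gene lists described below hold mainly genes of this level. Every count over such a list is therefore to be read against these higher shares as well as those of all genes. Since each sample is a bulk of cells, a changed share of cells carrying an RNA and a changed amount of RNA per cell cannot be told apart.

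**Figure D1:**
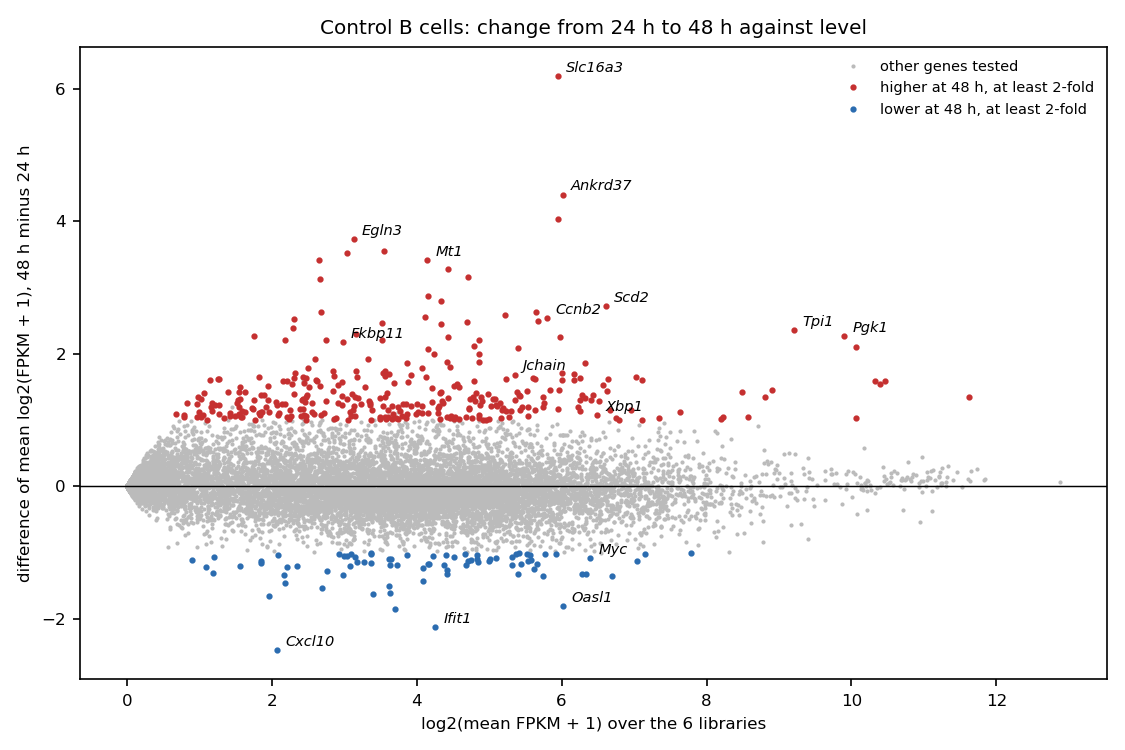
Each point is 1 of the 15178 genes tested, with its mean level over the 6 control libraries as log2(FPKM + 1) on the x axis and the 48 h minus 24 h difference of mean log2(FPKM + 1) on the y axis. The 320 genes in red rose and the 81 in blue fell by at least 2-fold with an adjusted p under 0.05, and *Slc16a3* stands apart at 6.20.

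Among the gene lists examined, the genes of glucose breakdown had the largest median change. The list also holds *Bnip3* and *Hif1a*, which are not enzymes or transporters of the pathway. Of its 25 genes tested, 22 (88%) rose, 19 of them by at least 2-fold, and the median change was 1.46 on the log2 scale. *Slc16a3* (gene ID 80879, chr11:120948484-120959000 in GRCm38), the exporter that carries lactate out of the cell, was 0.45, 0.25 and 0.21 FPKM at 0 h, 0.18, 1.75 and 0.39 FPKM at 24 h and 109.8, 124 and 129 FPKM at 48 h. It was below 2 FPKM in every library of 0 h and 24 h and above 100 FPKM in all 3 libraries of 48 h, a change of 6.20 ± 0.30 (adjusted p = 3.2e-05). The mitochondrial protein gene *Bnip3*, which marks mitochondria for removal, was 5.52, 7.01 and 5.63 FPKM at 24 h and 98.9, 123 and 124 FPKM at 48 h, with a log2 change of 4.04 ± 0.11 (adjusted p = 9.7e-06). The brain-type aldolase gene *Aldoc* was 4.22, 4.58 and 3.89 FPKM at 24 h and 38.4, 47.8 and 52.4 FPKM at 48 h, and *Pdk1*, a kinase that keeps pyruvate out of the mitochondrion, was 6.51, 7.46 and 6.48 FPKM at 24 h and 37.7, 45.9 and 44.5 FPKM at 48 h. Neither gene's libraries overlapped between the time points, and their log2 changes were 3.16 ± 0.11 and 2.48 ± 0.09.

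The rise reached from glucose uptake to lactate export. The glucose transporter gene *Slc2a1* was 23.2, 24.3 and 22.3 FPKM at 24 h and 68.4, 76.3 and 76 FPKM at 48 h, a log2 change of 1.62 ± 0.05. The rate-limiting phosphofructokinase genes *Pfkl*, *Pfkp* and *Pfkm* changed by 1.62, 1.46 and 1.00. Among the most abundant messages of the cell, *Gapdh* was 1709.8, 1833 and 1788 FPKM at 24 h and 4472, 4409.9 and 4667 FPKM at 48 h, a 2.54-fold ratio of means, and *Pgk1*, which makes the first ATP of the pathway, was 309, 336 and 331 FPKM at 24 h and 1472, 1596 and 1668 FPKM at 48 h. The triose phosphate isomerase gene *Tpi1* rose 5.17-fold and *Ldha*, which turns pyruvate into lactate, 3.03-fold. *Hk2* changed by only 0.31 ± 0.08 (adjusted p = 0.018), and the lactate transporter gene *Slc16a1* by -0.19 ± 0.07 (adjusted p = 0.065). *Hif1a*, whose protein is stabilised when oxygen is low and switches on much of this pathway, fell at the RNA level, from 21.4 ± 0.610 to 16.6 ± 0.829 FPKM (SD, n = 3, adjusted p = 0.0011).

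Other genes known to be induced by low oxygen were examined after these values had been seen, so their counts describe the libraries and are no independent evidence. Of 30 such genes outside the glycolysis list, 24 rose and 0 fell, against 20.1% and 24.8% of all genes. The ankyrin repeat gene *Ankrd37* was 3.70, 6.30 and 4.72 FPKM at 24 h and 115, 125 and 126 FPKM at 48 h. *Egln3*, an oxygen-sensing prolyl hydroxylase that marks HIF-1alpha for breakdown, was 0.22, 0.32 and 0.12 FPKM at 24 h and 14.1, 15.9 and 15.8 FPKM at 48 h, near 0 in every 24 h library. The mitochondrial adenylate kinase gene *Ak4* was 0.14, 0.56 and 0.25 FPKM at 24 h and 12, 15.8 and 14.2 FPKM at 48 h and the mitochondrial transport gene *Mgarp* 0.04, 0.13 and 0 FPKM at 24 h and 7.49, 11.8 and 12.2 FPKM at 48 h. The log2 changes of these 4 genes were 4.41, 3.74, 3.52 and 3.41. *P4ha1* (collagen prolyl hydroxylase), *Bnip3l* (mitochondrial clearance), *Ddit4* (an inhibitor of mTORC1) and *Vegfa* (vascular growth factor) changed by 2.56, 2.49, 2.63 and 1.93. Other members did not pass the test, among them *Adm*, which was 4.95, 5.86 and 5.52 FPKM at 24 h and 4.06, 5.98 and 4.63 FPKM at 48 h, and *Car9*, which did not exceed 0.42 FPKM in any library. Oxygen in the cultures was not measured in these data.

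The promoters of 3 of these genes are shown because the letters ACGTG, the core that HIF dimers bind, can be read directly in them. Each window runs from 250 bases before to 50 bases after the RefSeq transcript start (GRCm38.p6), 5′ to 3′ on the gene's strand, with ACGTG on either strand in capitals. An overlapping pair of matches on opposite strands appears as a single run of 6 capitals.
Slc16a3: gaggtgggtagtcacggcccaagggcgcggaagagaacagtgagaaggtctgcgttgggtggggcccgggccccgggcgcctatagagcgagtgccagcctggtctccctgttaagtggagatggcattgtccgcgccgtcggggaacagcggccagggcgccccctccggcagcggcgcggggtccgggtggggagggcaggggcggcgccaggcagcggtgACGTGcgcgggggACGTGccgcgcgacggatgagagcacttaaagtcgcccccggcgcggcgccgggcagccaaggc
Ldha: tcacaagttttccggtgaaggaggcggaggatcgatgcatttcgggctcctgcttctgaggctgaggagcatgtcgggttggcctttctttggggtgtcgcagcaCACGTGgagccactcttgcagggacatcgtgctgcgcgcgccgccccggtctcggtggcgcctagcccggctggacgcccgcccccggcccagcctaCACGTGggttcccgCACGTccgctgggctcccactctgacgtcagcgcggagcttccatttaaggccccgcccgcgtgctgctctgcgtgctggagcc
Bnip3: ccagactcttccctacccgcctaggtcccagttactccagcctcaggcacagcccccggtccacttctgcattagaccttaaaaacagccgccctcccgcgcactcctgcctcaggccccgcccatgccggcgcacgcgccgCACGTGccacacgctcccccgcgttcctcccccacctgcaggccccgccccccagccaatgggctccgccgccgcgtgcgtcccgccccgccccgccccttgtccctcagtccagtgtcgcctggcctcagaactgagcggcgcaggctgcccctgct
The windows lie at chr11:120948817-120949116, plus strand, for *Slc16a3*, chr7:46845554-46845853, plus strand, for *Ldha*, and chr7:138909457-138909756, minus strand, for *Bnip3*. *Slc16a3* has 2 matches, starting 27 and 14 bases before the transcript start, *Ldha* has 5 and *Bnip3* has 2. ACGTG was found in 13 of 23 (56.5%) of the glycolysis promoters and 13 of 24 (54.2%) of those of the added genes, against 19.7% of all 27025 promoters and 24.3% of those of genes tested here. The motif was chosen after the values were seen, and a match is a description of letters, not a bound site.

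**Figure D2:**
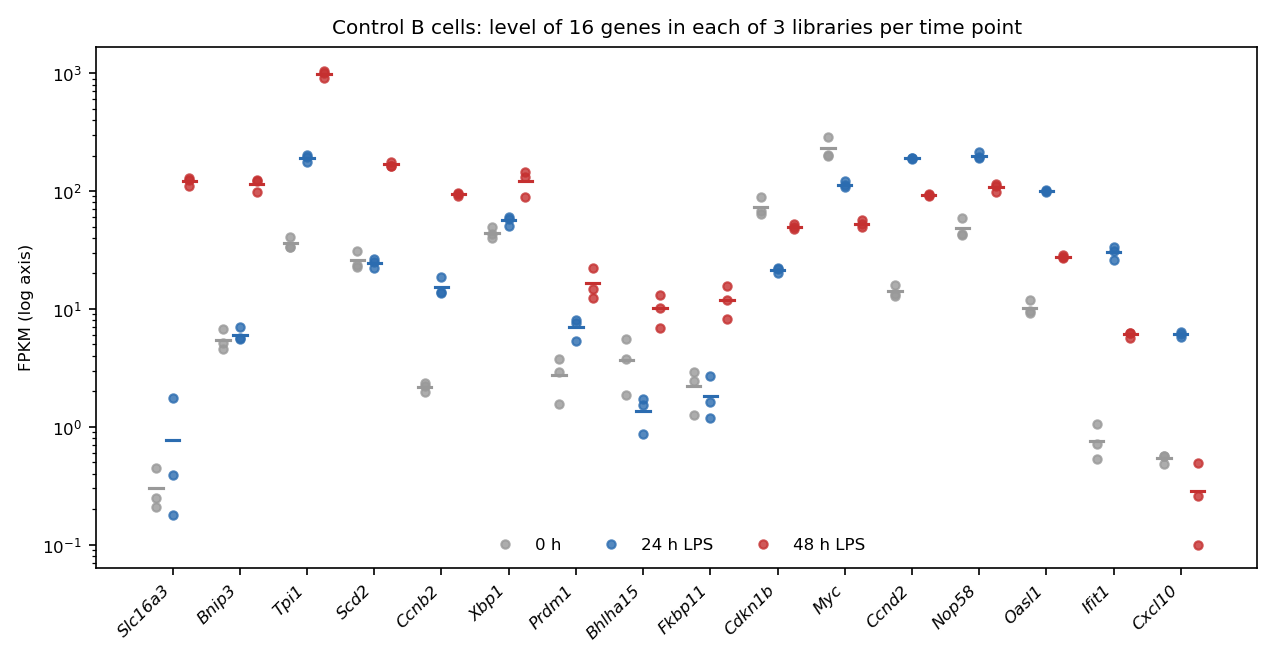
FPKM on a log axis for 16 genes in each control library (points, 3 per time point) with the mean of each time point as a bar. For every gene shown the 3 libraries of 48 h lie apart from those of 24 h, above them for *Slc16a3* to *Cdkn1b* and below them for *Myc* to *Cxcl10*.

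Most genes of cholesterol synthesis rose as well, and those of fatty acid and phospholipid synthesis rose in part. Of 26 genes of cholesterol synthesis and uptake, 23 (88.5%) rose and 0 (0%) fell, with a median change of 0.77 and 7 members at 2-fold or more. *Pmvk* and *Msmo1*, enzymes of the early and late pathway, changed most, by 1.15 ± 0.06 and 1.14 ± 0.05. *Hmgcs1*, which makes the substrate of the rate-limiting step, was 76.1, 73.2 and 69.7 FPKM at 24 h and 138, 162 and 142 FPKM at 48 h. Every 48 h library exceeded every 24 h library. A sterol regulatory element was searched for as 1 fixed run of letters, which 0 of the 18 cholesterol gene promoters with a window held, against 0.0851% of all promoters and 0.0248% of those of genes tested. Among 22 genes of fatty acid and phospholipid synthesis, 11 (50%) rose and 4 (18.2%) fell (2 falling without replicate 1). The largest changes were in desaturase genes: *Scd2* was 25.1, 22.4 and 26.5 FPKM at 24 h and 164, 178 and 162 FPKM at 48 h (log2 change 2.72 ± 0.07), *Fads2* was 3.93, 3.82 and 4.44 FPKM at 24 h and 31.8, 37.5 and 33.2 FPKM at 48 h (2.80 ± 0.08) and *Fads1* changed by 1.19 ± 0.08. *Fasn*, which builds the saturated chains, went the other way, from 58.3 ± 0.401 FPKM at 24 h to 47 ± 5.26 FPKM at 48 h (SD, n = 3, adjusted p = 0.012).

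Nearly all genes of mitosis rose, while the median change of DNA replication genes was near 0. Of 51 mitosis genes, 49 (96.1%) rose, 35 by at least 2-fold, none fell, and the median change was 1.21. Of 42 replication genes, 14 (33.3%) rose and 8 (19%) fell (9 rising without replicate 2, and 5 falling without replicate 3), with a median of -0.02. *Ccnb2*, a cyclin that drives entry into mitosis, was 1.97, 2.36 and 2.23 FPKM at 0 h, 13.9, 13.8 and 18.5 FPKM at 24 h and 90.6, 95.1 and 95.5 FPKM at 48 h. Its level rose at each step, and its log2 change between 24 h and 48 h was 2.54 ± 0.11 (adjusted p = 2.2e-05). *Cenpa*, the histone of the centromere, was 20.9, 19.8 and 22.1 FPKM at 24 h and 104, 99 and 107 FPKM at 48 h, *Cdc25b*, a phosphatase that switches on CDK1, was 9.18, 8.47 and 10.2 FPKM at 24 h and 43.3, 43.7 and 52.6 FPKM at 48 h, and *Ube2c*, which helps degrade cyclins, was 56.5, 59.1 and 69.97 FPKM at 24 h and 203, 181 and 205 FPKM at 48 h. *Mki67*, the proliferation marker Ki-67, was 31.4, 28.4 and 32.7 FPKM at 24 h and 66.8, 80.02 and 78.2 FPKM at 48 h. The exceptions were *Pttg1* and *Cenpk*, at 0.07 and 0.19, which did not pass the test.

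Abundant replication genes were already high at 24 h. *Pcna*, the sliding clamp of DNA polymerase and the most abundant member, was 162, 148 and 151 FPKM at 0 h, 521, 521 and 512 FPKM at 24 h and 539.8, 508 and 491 FPKM at 48 h, and the helicase gene *Mcm5* was 21, 24.1 and 18.6 FPKM at 0 h, 158, 166 and 171 FPKM at 24 h and 164, 158 and 154 FPKM at 48 h. In both the 24 h and 48 h libraries overlapped and lay far above those of 0 h. Members that rose included genes of nucleotide supply: the thymidine kinase gene *Tk1* changed by 0.78 ± 0.05, and the ribonucleotide reductase genes *Rrm2* and *Rrm1* by 0.70 ± 0.08 and 0.44 ± 0.06. The replication factor gene *Rfc3* and the polymerase subunit gene *Pold2* changed by -0.49 ± 0.06 and -0.41 ± 0.03 respectively. E2F sites (TTTCCCGC, TTTGGCGC, TTTCGCGC or TTTGGCGG on either strand) were found in 15 of 34 (44.1%) of the replication promoters, against 2.42% of all promoters and 4.16% of those of genes tested.

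The promoter of *Ccnb2* (chr9:70421505-70421804, minus strand) is given because it carries both elements typical of genes switched on in the later cell cycle, the cell cycle homology region TTTGAA and the letters CCAAT, all in capitals.
Ccnb2: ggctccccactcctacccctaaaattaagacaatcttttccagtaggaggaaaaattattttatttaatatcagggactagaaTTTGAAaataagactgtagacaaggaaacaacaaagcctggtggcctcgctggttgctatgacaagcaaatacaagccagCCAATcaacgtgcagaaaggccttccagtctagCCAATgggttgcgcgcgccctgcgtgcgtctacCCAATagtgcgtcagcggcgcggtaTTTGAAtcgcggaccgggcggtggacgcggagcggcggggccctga
It held 2 copies of TTTGAA, the second starting at transcript position 5, and 3 of CCAAT, starting 87, 54 and 21 bases before the start. TTTGAA was present on either strand in 29 of 42 (69%) of the mitosis promoters, against 18.1% of all promoters and 12.5% of those of genes tested, and CCAAT in 31 of 42 (73.8%), against 37.9% and 38.7%.

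Genes that control entry into the cell cycle moved in both directions. Among 34 genes of G1 cyclins, cyclin-dependent kinases and their inhibitors, 20 (58.8%) rose and 7 (20.6%) fell (13 rising without replicate 2). *Cdkn1b*, encoding the inhibitor p27, was 89.7, 67.6 and 64.2 FPKM at 0 h, 21.9, 20.3 and 22.2 FPKM at 24 h and 47.2, 49.3 and 52.8 FPKM at 48 h, so that the 48 h libraries lay between those of 24 h and 0 h. *Ccng2*, an atypical cyclin linked to arrest, was 37.3, 30.2 and 31.8 FPKM at 0 h, 8.54, 8.88 and 8.72 FPKM at 24 h and 28.6, 33.9 and 36.7 FPKM at 48 h. *Cdkn2a*, *Cdkn2d*, *Cdkn2c* and *Cdkn1a*, which encode further inhibitors, changed by 1.79 ± 0.11, 1.59 ± 0.06, 1.11 ± 0.04 and 0.97 ± 0.07. *Ccnd2*, the D-type cyclin of activated B cells, fell 2.04-fold and was 12.9, 15.8 and 13.4 FPKM at 0 h, 191, 188 and 191 FPKM at 24 h and 95.2, 91.6 and 92.3 FPKM at 48 h. Its partner genes *Cdk4* and *Cdk6* changed by -0.34 ± 0.04 and -0.79 ± 0.08. The transcription factor gene *E2f2* rose (1.05 ± 0.06) and *E2f1* fell (-0.41 ± 0.06).

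Genes that build ribosomes fell together. Of 46 ribosome biogenesis genes, 45 (97.8%) fell and none rose, against 24.8% of all genes falling, and the median change was -0.80. *Rrp9*, which processes the small subunit RNA, was 106, 112 and 112 FPKM at 24 h and 47.3, 44.7 and 38.7 FPKM at 48 h, a log2 change of -1.32 ± 0.07 (adjusted p = 4.4e-05). *Utp20*, *Rrp12* and *Polr1b*, the last a subunit of RNA polymerase I, changed by -1.17 ± 0.05, -1.14 ± 0.06 and -1.12 ± 0.09. *Npm1*, the most abundant member and a main protein of the nucleolus, was 1847, 2007 and 1812 FPKM at 24 h and 1504, 1507 and 1405 FPKM at 48 h, and the box C/D protein gene *Nop58* was 43.2, 42.5 and 58.9 FPKM at 0 h, 190.2, 212 and 194 FPKM at 24 h and 116, 111 and 99 FPKM at 48 h. The 48 h libraries of both genes lay below those of 24 h, and in *Nop58* they stayed above those of 0 h. *Polr1c* was the single member that did not pass the test, at 0.05 ± 0.03. The E-box CACGTG, a MYC site, was found in 9 of 41 (22%) of the biogenesis promoters, in 7.24% of all promoters and in 9.56% of those of genes tested.

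*Myc* itself (gene ID 17869, chr15:61985341-61990361) was 203, 288 and 199 FPKM at 0 h, 107, 121 and 111 FPKM at 24 h and 52.2, 56.5 and 50 FPKM at 48 h, lower at each later time, with a log2 change from 24 h to 48 h of -1.08 ± 0.06 (adjusted p = 4.4e-05). Among 13 genes of its network, 5 (38.5%) rose and 5 (38.5%) fell (3 rising without replicate 3, and 3 falling without replicate 1 and 3 falling without replicate 3), and the antagonists *Mxd3* and *Mxi1*, which compete for the shared partner MAX, rose by 1.69 and 1.65 on the log2 scale. *Max* changed by -0.31 ± 0.04. The ribosomal proteins gave other counts than the factors that assemble them: of 84 tested, 12 (14.3%) rose and 1 (1.19%) fell (2 to 19 rising over the leave-outs of 1 library or 1 replicate number, fewest without replicate 1), with a median of 0.08. *Rplp1*, the most abundant, was 3479.6, 3599 and 3529.8 FPKM at 24 h and 3885, 3716 and 3823 FPKM at 48 h. The member that fell was *Rpl7l1*, a nucleolar relative of a ribosomal protein (-0.49 ± 0.05), and the largest rise was that of *Rpl22l1*, a paralog of a ribosomal protein gene (0.71 ± 0.04). Ribosomal protein genes have many near-identical copies in the genome, which can share reads. Of 22 aminoacyl-tRNA synthetase genes, 2 (9.09%) rose and 17 (77.3%) fell, with a median of -0.25. Among 28 genes of amino acid transport and ATF4 targets, 9 (32.1%) rose and 7 (25%) fell (5 rising without replicate 3, and 3 falling without replicate 2 and 3 falling without replicate 3).

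**Figure D3:**
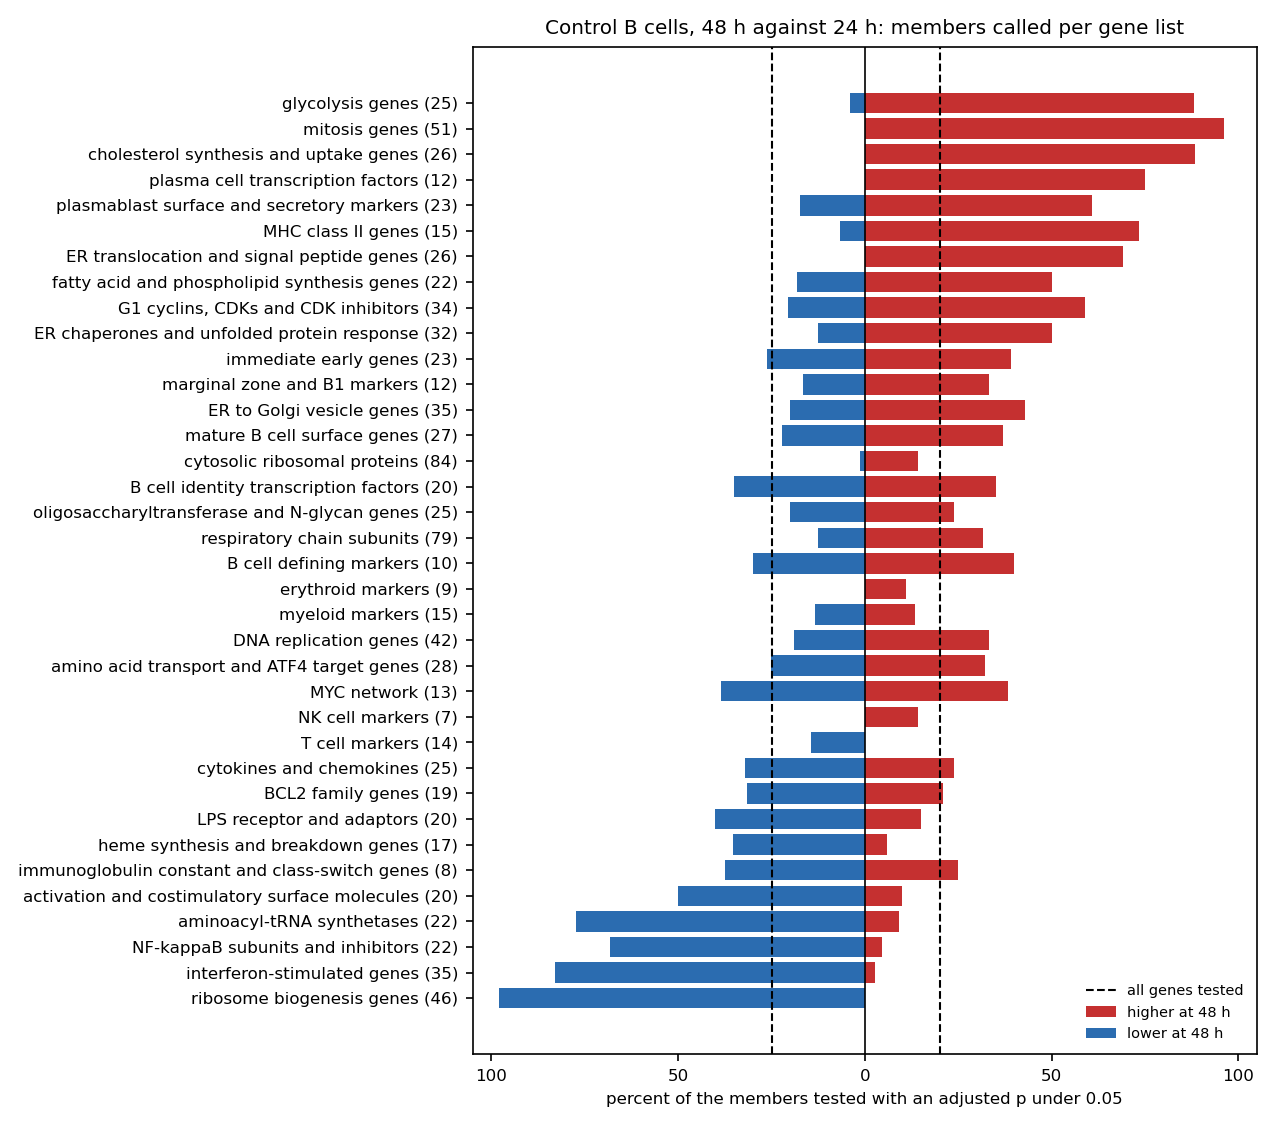
Percent of the tested members of each of 36 gene lists (number in brackets) with an adjusted p under 0.05, higher at 48 h to the right in red and lower at 48 h to the left in blue, ordered by median change. The dashed lines mark 20.1% and 24.8%, the shares of all genes tested, and glycolysis, mitosis and cholesterol genes at the top and ribosome biogenesis genes at the bottom reach furthest beyond them.

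Of 12 transcription factors of plasma cells, 9 (75%) rose and 0 (0%) fell, with a median change of 0.72. *Prdm1* (gene ID 12142, chr10:44437174-44528558) was 1.55, 2.89 and 3.79 FPKM at 0 h, 7.66, 5.35 and 8.02 FPKM at 24 h and 14.7, 12.3 and 22.2 FPKM at 48 h, a change of 1.10 ± 0.22 (adjusted p = 0.0070). *Xbp1* (gene ID 22433, chr11:5520641-5525993) was 49.7, 43.5 and 39.7 FPKM at 0 h, 60.04, 50.4 and 58.4 FPKM at 24 h and 131, 88.8 and 145 FPKM at 48 h, a change of 1.07 ± 0.18 (adjusted p = 0.0029). *Bhlha15*, encoding MIST1, which acts downstream of XBP1 in secretory cells, was 1.54, 0.86 and 1.71 FPKM at 24 h and 10.2, 6.85 and 13.2 FPKM at 48 h and changed most (2.20 ± 0.24). *Ell2*, an elongation factor needed for secretory immunoglobulin message, was 16.4, 13.3 and 15.9 FPKM at 24 h and 30.5, 23.1 and 35.5 FPKM at 48 h. In these genes no 24 h library reached a 48 h library. The ER stress factor gene *Creb3l2*, the B cell coactivator gene *Pou2af1*, *Zbtb32*, *Arid3a* and *Ikzf3* rose by 0.97, 0.83, 0.61, 0.60 and 0.13. *Irf4*, which sits above *Prdm1*, was 62.7, 66.2 and 63.4 FPKM at 24 h and 59.1, 53.7 and 65.9 FPKM at 48 h (-0.11 ± 0.07, adjusted p = 0.28), and *Atf4* and *Zbtb20* changed by -0.05 ± 0.05 and -0.11 ± 0.07. None of those 3 passed the test.

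Replicate 2 was the lowest 48 h library for 8 of the 9 factors that rose and the lowest 24 h library for 7 of them. Its *Prdm1* level at 48 h was 12.3 FPKM beside 14.7 and 22.2 FPKM. Leaving replicate 2 out at both times, 8 of the 12 factors rose, *Prdm1* changed by 1.11 (adjusted p = 0.024) and *Xbp1* by 1.21 (adjusted p = 0.0053). Replicate 2 was also the lowest 48 h library for 12 of the 14 plasmablast markers and 15 of the 18 ER translocation genes that rose, whereas replicate 1 was the lowest for 20 of the 22 glycolysis genes that rose. Without replicate 1 the changes of *Prdm1*, *Xbp1* and *Jchain* were 1.22 (adjusted p = 0.065), 1.05 (adjusted p = 0.0505) and 1.53 (adjusted p = 0.068), past the threshold in none of them.

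Transcription factors of B cell identity moved in both directions. Of 20, 7 (35%) rose and 7 (35%) fell. *Pax5*, the factor that holds cells in the B lineage, was 227, 224 and 272 FPKM at 0 h, 156, 143 and 146 FPKM at 24 h and 96.1, 105 and 93.2 FPKM at 48 h, with a log2 change of -0.59 ± 0.05 (adjusted p = 0.00024). *Bcl6*, the germinal centre factor that opposes *Prdm1*, was 15.2, 13.8 and 13.5 FPKM at 24 h and 7.61, 8.09 and 8.06 FPKM at 48 h (-0.77 ± 0.06), and *Bach2*, a further repressor of *Prdm1*, was 20.9, 19.4 and 21.1 FPKM at 24 h and 13.8, 17.4 and 16.6 FPKM at 48 h (-0.35 ± 0.08). *Ebf1*, *Foxp1*, *Pou2f2* and *Bcl11a* changed by -0.26, -0.25, -0.35 and -0.34. On the rising side, *Klf2*, a factor of quiescent cells, changed by 0.54 ± 0.06 and *Ets1*, which restrains plasma cell formation, by 0.42 ± 0.06, and both stayed far below their 0 h means of 838 FPKM and 306 FPKM. *Tcf3*, *Ciita*, *Irf8*, *Mef2c* and *Spi1* changed by 0.37, 0.33, 0.23, 0.23 and 0.13. The members that did not pass the test were *Spib* (0.06), *Id3* (0.06), *Foxo1* (0.08), *Ikzf1* (-0.05), *Tcf4* (0.12) and *Mitf* (0.03).

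Among 23 surface and secretory markers of plasmablasts, 14 (60.9%) rose and 4 (17.4%) fell (0 to 4 falling over the leave-outs of 1 library or 1 replicate number, fewest without replicate 2). *Jchain*, which joins immunoglobulin M into pentamers, was 76.1, 84.5 and 108 FPKM at 0 h, 16.5, 14.6 and 22.2 FPKM at 24 h and 69.5, 36.8 and 78.8 FPKM at 48 h, a change of 1.69 ± 0.29 (adjusted p = 0.0034). *Fkbp11*, an ER prolyl isomerase, was 1.62, 1.19 and 2.67 FPKM at 24 h and 12, 8.14 and 15.6 FPKM at 48 h (2.18 ± 0.26), and *Mzb1*, a chaperone partner for immunoglobulin M, was 299, 266 and 296 FPKM at 24 h and 571, 442 and 629 FPKM at 48 h (0.92 ± 0.13). *Sdc1*, encoding the plasma cell surface protein CD138, was low throughout, 1.35, 1.79 and 1.97 FPKM at 24 h and 3.08, 2.23 and 3.22 FPKM at 48 h (0.50 ± 0.13, adjusted p = 0.020). *Plpp5* and *Trp53inp1* changed by 1.55 ± 0.12 and 1.29 ± 0.12, and the homing receptor gene *Cxcr4* by 1.21 ± 0.10, from 8.05 ± 0.511 FPKM at 24 h to 20.1 ± 2.94 FPKM at 48 h, against a 0 h mean of 350.1 FPKM. Members against the trend were *Ly6c2* (-1.06 ± 0.36), *Ly6c1* (-0.55 ± 0.14), *Slamf7* (-0.39 ± 0.09) and *Tnfrsf13b* (-0.19 ± 0.06), the last encoding the survival receptor TACI. *Ly6c1* and *Ly6c2* are close copies that can share reads.

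Genes of the secretory apparatus rose in part. Of 26 genes of ER translocation and signal peptide removal, 18 (69.2%) rose and 0 (0%) fell (10 rising without replicate 1), with a median of 0.32, with the largest changes in *Sec11c* of the signal peptidase (0.87 ± 0.09) and *Tram2* (0.68 ± 0.17). The channel subunit gene *Sec61b* was 140.4, 132 and 126 FPKM at 24 h and 220.2, 182 and 223 FPKM at 48 h (0.64 ± 0.08). Of 32 ER chaperones and unfolded protein response genes, 16 (50%) rose and 4 (12.5%) fell (9 rising without replicate 1, and 0 to 3 falling over the leave-outs of 1 library or 1 replicate number, fewest without replicate 1). *Ero1a*, which reoxidises the disulfide-forming enzymes, was 15.8, 16.6 and 17 FPKM at 24 h and 35.7, 42.2 and 41.8 FPKM at 48 h, and *Derl3*, which helps export misfolded proteins, was 18.2, 12.9 and 15.7 FPKM at 24 h and 32, 27.6 and 40.9 FPKM at 48 h. *P4hb*, *Edem2*, *Ero1b* and *Pdia4* changed by 0.75 ± 0.04, 0.74 ± 0.08, 0.72 ± 0.08 and 0.52 ± 0.09. The major chaperone gene *Hspa5*, encoding BiP, was 539, 514 and 530.3 FPKM at 24 h and 549.6, 484 and 543 FPKM at 48 h (-0.01 ± 0.06, 95% interval -0.14 to 0.13, adjusted p = 0.94). *Calr*, *Canx*, *Pdia3* and *Ppp1r15a* went against the trend, at -0.18 ± 0.06, -0.11 ± 0.03, -0.27 ± 0.05 and -0.18 ± 0.05. Of 25 oligosaccharyltransferase and N-glycan genes, 6 (24%) rose and 5 (20%) fell. Of 35 ER to Golgi vesicle genes, 15 (42.9%) rose and 7 (20%) fell (6 rising without replicate 1 and 7 rising without replicate 3, and 3 to 8 falling over the leave-outs of 1 library or 1 replicate number, fewest without the 24 h replicate 2), with the largest change in the coat protein gene *Sec24d*, which was 3.29, 2.58 and 3.35 FPKM at 24 h and 12.4, 9.69 and 16.3 FPKM at 48 h (1.74 ± 0.18).

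The promoters of *Derl3* and *Hspa5* (chr10:75893148-75893447, plus strand, and chr2:34771840-34772139, plus strand) show the same ER stress element, CCAAT and CCACG separated by 9 bases (all in capitals, on the reverse strand in *Derl3*). *Derl3* rose and *Hspa5* did not pass the test; a difference between the genes was not tested.
Derl3: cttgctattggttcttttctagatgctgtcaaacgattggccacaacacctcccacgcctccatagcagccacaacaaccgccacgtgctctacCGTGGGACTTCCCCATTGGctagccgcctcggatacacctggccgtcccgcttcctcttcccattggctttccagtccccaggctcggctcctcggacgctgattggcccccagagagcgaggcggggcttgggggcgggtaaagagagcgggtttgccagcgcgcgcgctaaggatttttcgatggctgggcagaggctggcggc
Hspa5: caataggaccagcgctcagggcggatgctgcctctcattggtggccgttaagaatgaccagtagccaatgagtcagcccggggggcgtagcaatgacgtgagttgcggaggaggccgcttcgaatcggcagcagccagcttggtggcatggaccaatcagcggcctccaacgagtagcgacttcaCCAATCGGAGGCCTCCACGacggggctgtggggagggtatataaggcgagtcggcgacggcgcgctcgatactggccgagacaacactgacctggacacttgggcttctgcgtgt
The element was present in 10 of 28 (35.7%) of the chaperone and stress response promoters, against 0.130% of all promoters and 0.182% of those of genes tested. The related letters ATTGG, any base and CCACG stood in 2 of 28 (7.14%), against 0.0370% and 0.0578%, and TGACGTGG in 0 of 28, against 0.607% and 0.768%.

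Of 8 genes of class switching measured here, 2 rose and 3 fell. *Ung*, a uracil glycosylase that starts base excision repair, was 53.6, 59.2 and 55.4 FPKM at 24 h and 29.3, 27.3 and 25.6 FPKM at 48 h (-1.01 ± 0.06), and the endonuclease gene *Apex1* changed by -0.74 ± 0.08. *Batf*, a transcription factor needed for class switching, fell (-0.40 ± 0.05) and *Nfil3* rose (0.62 ± 0.07). The immunoglobulin constant region genes of the list were not analysed here.

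Among signalling genes, the NF-kappaB list fell most widely. Of 20 receptor and adaptor genes, 3 (15%) rose and 8 (40%) fell (4 to 8 falling over the leave-outs of 1 library or 1 replicate number, fewest without replicate 2), with *Cd180*, a relative of the LPS receptor, at -0.67 ± 0.05 and the adaptor gene *Ticam2* at 0.73 ± 0.06. Of 22 NF-kappaB genes, 1 (4.55%) rose and 15 (68.2%) fell. *Rel*, the c-Rel subunit that leads in activated B cells, was 49.7, 135 and 227 FPKM at 0 h, 25.1, 23.3 and 22.6 FPKM at 24 h and 13.8, 14.8 and 13.3 FPKM at 48 h (-0.72 ± 0.06). *Nfkbiz*, a nuclear cofactor induced by LPS, was 77, 79.2 and 72.5 FPKM at 24 h and 27.8, 32.4 and 27.6 FPKM at 48 h (-1.36 ± 0.07, adjusted p = 3.5e-05). *Nfkbid* and *Traf1* changed by -0.85 ± 0.08 and -0.61 ± 0.05, and *Bcl3*, a nuclear I-kappaB protein, was the single riser (0.22 ± 0.06). The call of *Bcl3* was lost in 8 of the 16 alternatives. Of 23 immediate early genes, 9 (39.1%) rose and 6 (26.1%) fell: *Nr4a1* changed by -0.86 ± 0.09, *Junb* by 0.81 ± 0.04, *Dusp1* by 1.06 ± 0.11 and *Ier3* by 1.43 ± 0.12. Of 20 activation and costimulatory surface molecules, 2 (10%) rose and 10 (50%) fell, with the largest change in the ICOS ligand gene *Icosl*, which was 26.5, 22.6 and 22.5 FPKM at 24 h and 9.41, 7.48 and 7.76 FPKM at 48 h. *Cd44* and the death receptor gene *Fas* went against the trend, at 0.33 ± 0.04 and 0.69 ± 0.08.

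Among 25 cytokine and chemokine genes, 6 (24%) rose and 8 (32%) fell. The chemokine gene *Cxcl10* (gene ID 15945, chr5:92346638-92348889), induced by interferons, was 0.57, 0.57 and 0.48 FPKM at 0 h, 6.09, 6.42 and 5.78 FPKM at 24 h and 0.49, 0.10 and 0.26 FPKM at 48 h. Every 48 h library was at or below 0.49 FPKM, close to or below those of 0 h. Its change of -2.48 ± 0.11 (adjusted p = 3e-05) was the largest fall among genes whose mean reached 1 FPKM and whose groups did not overlap. *Ccl22*, which attracts T cells, was 13.9, 21.5 and 22.6 FPKM at 24 h and 4.73, 5.64 and 3.48 FPKM at 48 h (-1.85 ± 0.21), and the inflammatory cytokine gene *Il6* was 4.61, 5.87 and 6.06 FPKM at 24 h and 1.79, 1.81 and 1.73 FPKM at 48 h (-1.22 ± 0.10). *Ltb*, encoding lymphotoxin beta, rose from 52.1 ± 2.86 FPKM at 24 h to 143 ± 6.41 FPKM at 48 h (SD, n = 3, 1.44 ± 0.05).

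Interferon-stimulated genes fell broadly. Of 35, 29 (82.9%) fell, 11 of them by at least 2-fold, 1 rose, and the median change was -0.62. *Ifit1* (gene ID 15957, chr19:34640889-34650009), which binds viral RNA, was 1.05, 0.53 and 0.71 FPKM at 0 h, 33.5, 30.9 and 26.1 FPKM at 24 h and 6.27, 6.30 and 5.67 FPKM at 48 h (-2.13 ± 0.09, adjusted p = 2.6e-05). *Oasl1*, an inhibitor of *Irf7* translation, was 9.57, 11.9 and 9.25 FPKM at 0 h, 101, 99.7 and 98 FPKM at 24 h and 28.4, 27.5 and 27.3 FPKM at 48 h (-1.81 ± 0.03), *Isg15*, a ubiquitin-like modifier, was 119.8, 118 and 104 FPKM at 24 h and 51.4, 41.3 and 42.3 FPKM at 48 h (-1.33 ± 0.09), and *Irf7* was 48.6, 43.1 and 43.9 FPKM at 24 h and 23.1, 18.2 and 21.4 FPKM at 48 h (-1.08 ± 0.09). In each the 48 h libraries lay below those of 24 h. *Ifit3*, *Rsad2* and *Rtp4* changed by -1.62 ± 0.10, -1.33 ± 0.07 and -1.26 ± 0.09, as did *Ifit3b*, not on the list, by -1.65 ± 0.09. *Ifit3* and *Ifit3b* are close copies that can share reads. *Ifi27* was the exception that rose, 28.2, 30.6 and 28.5 FPKM at 24 h and 71.2, 77 and 79.2 FPKM at 48 h (1.35 ± 0.05).

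The promoter of *Ifit1* (chr19:34640639-34640938, plus strand) is printed for the paired interferon response elements in it, GAAA, 2 bases and GAAA, which lie here on the reverse strand (capitals).
Ifit1: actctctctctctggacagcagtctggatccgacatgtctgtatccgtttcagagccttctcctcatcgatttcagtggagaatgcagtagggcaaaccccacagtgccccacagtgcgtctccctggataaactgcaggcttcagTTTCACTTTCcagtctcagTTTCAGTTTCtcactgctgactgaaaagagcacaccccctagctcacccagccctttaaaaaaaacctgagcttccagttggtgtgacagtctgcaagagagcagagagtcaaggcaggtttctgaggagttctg
They start 104 and 85 bases before the transcript start. Such an element stood on either strand in 16 of 25 (64%) of the interferon-stimulated promoters, against 3.49% of all promoters and 3.13% of those of genes tested.

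**Figure D4:**
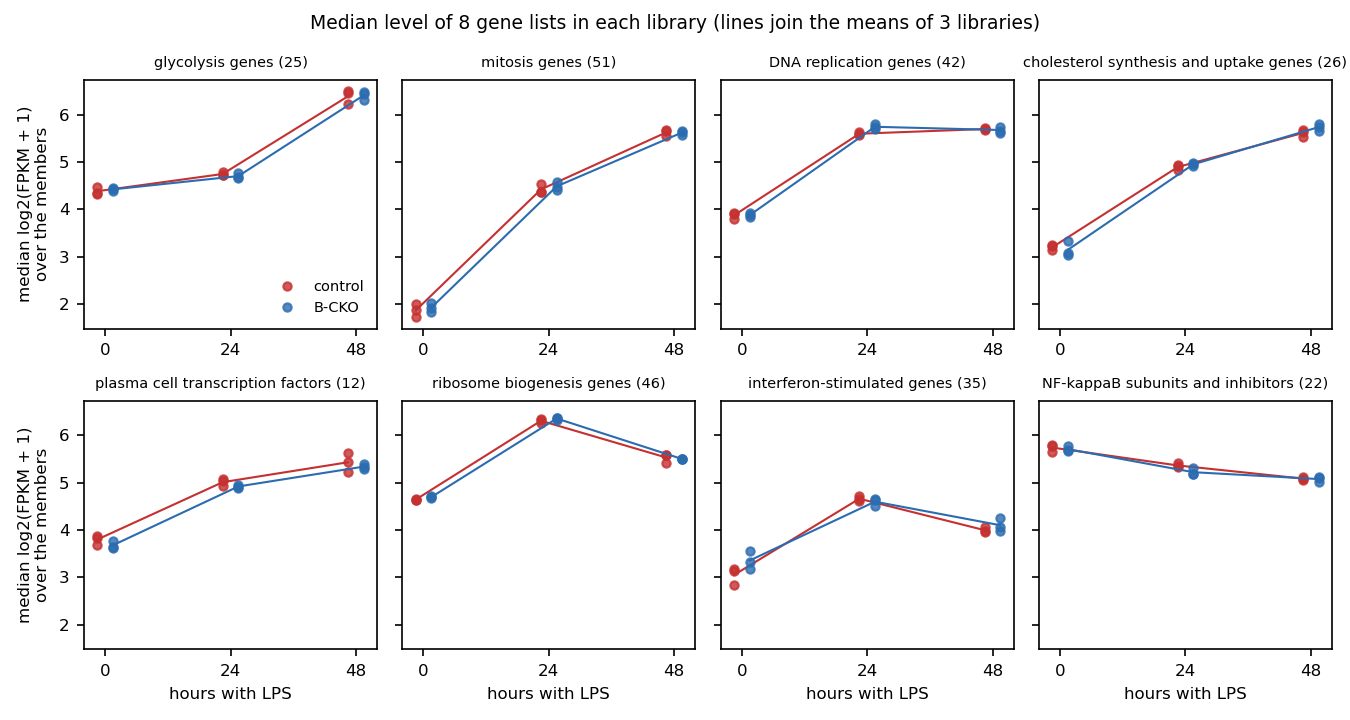
Median log2(FPKM + 1) over the members of 8 gene lists in each library against hours with LPS, control in red and B-CKO in blue, with lines joining the means of 3 libraries. In these medians, mitosis and cholesterol genes climb at both steps, glycolysis genes mainly at the second, replication genes mainly at the first, and ribosome biogenesis and interferon-stimulated genes peak at 24 h. The summed level of the glycolysis genes in control cells rose at both steps, from at most 1767 FPKM at 0 h to at least 5208 FPKM at 24 h and 15983 FPKM at 48 h.

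Surface genes of mature B cells were mixed. Of 27, 10 (37%) rose and 6 (22.2%) fell (5 rising without replicate 1 and 5 rising without replicate 3). *Fcmr*, encoding the immunoglobulin M Fc receptor, was 791, 757 and 588 FPKM at 0 h, 188, 176 and 175 FPKM at 24 h and 89.9, 75 and 80.5 FPKM at 48 h (-1.13 ± 0.07), and *Cd72*, *Cr2* and *Btla*, inhibitory or complement receptors, changed by -0.75 ± 0.05, -0.56 ± 0.06 and -0.54 ± 0.04. The BAFF receptor gene *Tnfrsf13c* rose (0.76 ± 0.05), as did *Gpr183* (0.66 ± 0.08), which guides B cells in the follicle. *Cd79a*, the signalling chain of the B cell receptor and the most abundant member, changed by 0.24 ± 0.05. Of the 10 defining B cell genes, 4 (40%) rose and 3 (30%) fell (2 rising without replicate 3), and *Vpreb3*, expressed in early B lineage cells, was 107, 103 and 52.5 FPKM at 0 h, 6.73, 5.87 and 6.91 FPKM at 24 h and 27.7, 25.8 and 33.8 FPKM at 48 h (2.00 ± 0.11). Of 15 MHC class II and antigen processing genes, 11 (73.3%) rose and 1 (6.67%) fell (6 rising without replicate 3). *H2-Ob*, *Lgmn* and *H2-Eb1* changed by 0.57 ± 0.09, 0.61 ± 0.09 and 0.50 ± 0.08, the invariant chain gene *Cd74* was 3148, 2774 and 2913 FPKM at 24 h and 3584, 3279 and 3532 FPKM at 48 h (adjusted p = 0.058, not passing the test), and *Ctss* went against the trend (-0.24 ± 0.07).

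Among 19 BCL2 family genes, 4 (21.1%) rose and 6 (31.6%) fell. The death-promoting gene *Bcl2l11*, encoding BIM, was 17.4, 27.6 and 49.9 FPKM at 0 h, 9.14, 9.11 and 9.12 FPKM at 24 h and 19.1, 21.1 and 23.1 FPKM at 48 h (1.12 ± 0.07), while the survival genes *Bcl2a1d* and *Bcl2a1b*, close copies that can share reads, changed by -0.64 ± 0.07 and -0.56 ± 0.08, and *Mcl1*, the most abundant member, by 0.06 ± 0.04. Of 12 marginal zone and B1 cell markers, 4 (33.3%) rose, 2 (16.7%) fell and 6 did not pass the test, with a median of 0.14. The largest rises were *Spn* (CD43) at 1.25 ± 0.09 and *Bhlhe41* at 1.24 ± 0.08, and the largest fall was *Cr2* at -0.56. Of 79 respiratory chain subunits, 25 (31.6%) rose and 10 (12.7%) fell (14 rising without replicate 1 and 12 rising without replicate 3, and 6 falling without replicate 2), and the median of 0.04 stands beside 1.46 for glycolysis. The largest changes were in isoform genes of muscle and heart: *Cox7a1* was 0.45, 1.80 and 0.45 FPKM at 24 h and 16, 23 and 22.1 FPKM at 48 h (3.55 ± 0.28) and *Cox6a2* was 1.84, 2.84 and 2.09 FPKM at 24 h and 0.33, 0.25 and 0.35 FPKM at 48 h (-1.30 ± 0.11). *Ndufv3* changed by 1.28 ± 0.08. Of 17 genes of heme synthesis and breakdown, 1 (5.88%) rose and 6 (35.3%) fell, with *Uros*, *Alad* and the mitochondrial glycine carrier gene *Slc25a38* at -0.58 ± 0.12, -0.57 ± 0.06 and -0.57 ± 0.08.

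The remaining genes among the 15 largest rises and 15 largest falls belong to none of these lists. The metallothionein genes *Mt1* and *Mt2*, neighbours that encode zinc-binding proteins, both rose. *Mt1* was 2.55, 1.86 and 1.66 FPKM at 24 h and 27.4, 30.6 and 35.8 FPKM at 48 h (3.42 ± 0.13). *Mt2* was 0.10, 0.52 and 0.31 FPKM at 24 h and 9.27, 9.77 and 12.2 FPKM at 48 h (3.13 ± 0.15). For both, every 48 h library lay far above the 24 h libraries. *Endou*, an RNA-cleaving enzyme gene, was 3.37, 3.17 and 3.25 FPKM at 24 h and 27.9, 30.6 and 32.6 FPKM at 48 h (2.88 ± 0.06), and the creatine kinase gene *Ckb* was 0.78, 0.48 and 0.89 FPKM at 24 h and 7.85, 7.79 and 14.5 FPKM at 48 h (2.64 ± 0.23), with replicate 3 well above the other 2 at 48 h. On the falling side, *Mdn1*, a giant ATPase that matures the large ribosomal subunit, was 17.7, 18.6 and 16.7 FPKM at 24 h and 4.99, 5.98 and 4.50 FPKM at 48 h (-1.61 ± 0.09). *Txnrd3* (thioredoxin reductase), *Slfn5*, *Ell3* (elongation factor), *Ms4a4c* and *Plk3* (polo-like kinase) changed by -1.54 ± 0.08, -1.51 ± 0.08, -1.46 ± 0.11, -1.36 ± 0.13 and -1.34 ± 0.08.

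The B-CKO libraries, which share no sample with the control comparison, gave a second measurement of the same interval. There 6964 of 15253 genes (45.7%) passed the test. All 320 genes that rose and all 81 that fell by at least 2-fold in control B cells had the same sign in B-CKO B cells, and 318 and 80 of them also passed the test there. Over all control calls also tested there, 3011 of 3056 rising genes (98.5%) and 3713 of 3761 falling genes (98.7%) had the same sign, 2563 (83.9%) and 3106 (82.6%) also passed the test there in that direction, and 3 and 1 passed it in the opposite direction. *Slc16a3* changed by 6.53 in B-CKO cells, *Prdm1* by 1.39, *Xbp1* by 1.10, *Myc* by -1.16 and *Ifit1* by -2.22. A test of the difference between the genotypes in this change called 0 of 15844 genes in limma (0%), with 1158 genes at an unadjusted p under 0.05 and a smallest adjusted p of 0.189. This does not show that the changes were equal: for *Prdm1* the B-CKO minus control difference was 0.29 ± 0.26 (SE).

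**Figure D5:**
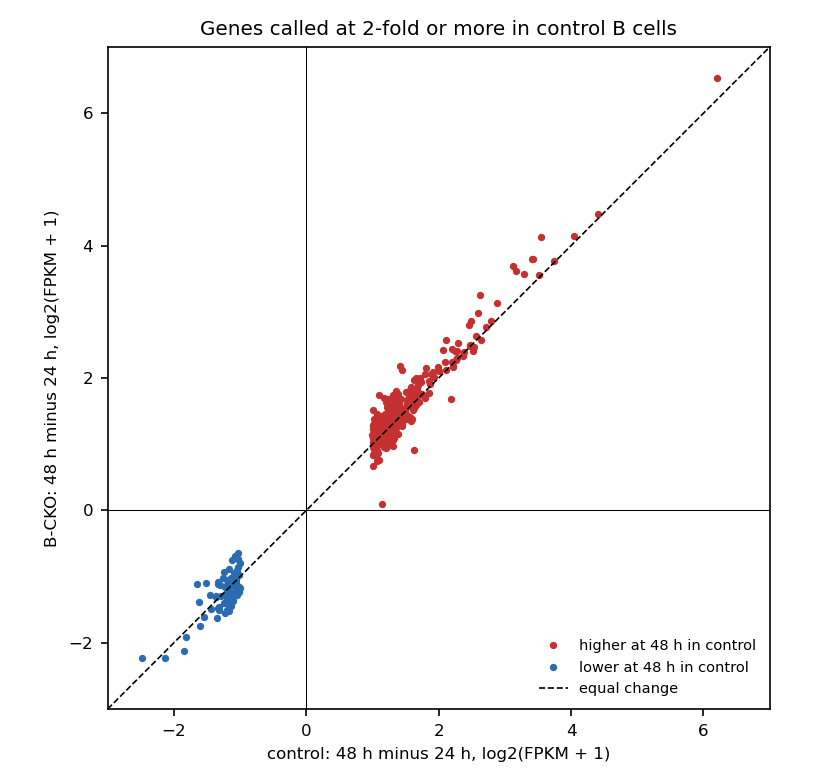
Change from 24 h to 48 h in control (x axis) and B-CKO B cells (y axis), both as differences of mean log2(FPKM + 1), for the 320 genes in red and 81 genes in blue that changed by at least 2-fold in control cells. All 401 points lie in the quadrants of equal sign, most of them near the dashed line of equal change.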

How the data were processed

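RNA from splenic B cells was sequenced as paired-end libraries. The authors deposited 1 table of FPKM values for 16545 genes in 18 libraries. Tools named in the labels or methods were BWA, Bowtie2, Cufflinks, RSEM and DESeq2 with build mm10, and their versions are not given in the sources used here. FPKM is relative to the library's total, so a change in a few abundant genes moves all other values. The counts were not used here. NCBI gene IDs were matched to RefSeq symbols (16512 of 16545).

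The deposited FPKM values were converted here to log2(FPKM + 1), with a pseudocount of 1, and tested with limma 3.58.1 (lmFit and eBayes with a trend) in R 4.3.3 on the 6 control libraries, with Benjamini-Hochberg adjustment over 15178 genes. The stricter calls also needed 2-fold. Each replicate is 1 mouse per the methods, and whether same-numbered libraries of 24 h and 48 h share a mouse is not stated. The fit was tested on simulated data. The B-CKO comparison and the genotype difference were fitted likewise.

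Genes named were the 15 largest rises and 15 largest falls without overlap and with a mean of at least 1 FPKM, all plasma cell and B cell identity factors, up to 4 members with the largest change, the most abundant member and members against the majority of every other list, and the cell type markers. 36 further genes were named after their values were seen. The members and lists were chosen with earlier results of these data known. Alternatives were another pseudocount, a filter on low values, other scalings, the replicate block and leaving out libraries. Some genes within this rule are not reported here.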

Additional observations from a re-analysis of the deposited data

How the results depend on the processing

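Fits without 1 library, or without both libraries of a replicate number, gave 4496 to 6404 genes called between 48 h and 24 h against 6820, with 2064 to 2966 higher and 2432 to 3537 lower at 48 h, and 357 to 433 at 2-fold or more (290 to 338 higher and 67 to 98 lower). The fewest calls came without replicate 3. A pseudocount of 0.1 in place of 1 gave 917 genes at 2-fold or more (736 higher and 181 lower), as this scale lets genes near 0 FPKM reach 2-fold. Median ratio scaling gave 6678 calls, with 3395 higher and 3283 lower, so that the majority turned, rescaling to TPM gave 6889, with 2743 higher and 4146 lower, a minimum mean of 1 FPKM 6346 and a single fit of 12 libraries 6980. The replicate number as a block gave 6338 calls (2915 higher and 3423 lower) and, together with the minimum of 1 FPKM, chosen after seeing the data, 6357. Deviations of same-numbered control libraries from their group means correlated at -0.0271, 0.113 and 0.0669 across genes, and not every library correlated best with its own number. In B-CKO these correlations ranged from 0.0930 to 0.160, and there every library correlated best with its own number, a hint from the data and not from the design. With 3 libraries per group such low correlations cannot decide whether a number marks the same mouse, so the main fit does not pair them. The genotype difference was called for 0 to 3 genes over the leave-outs.

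Of the 181 named genes with a call, 152 kept it in all 16 alternatives and none changed sign. *Bcl3*, *Calr*, *Canx*, *Ctss*, *Ikzf3*, *Ly6c2*, *Ppp1r15a*, *Spi1* and *Tnfrsf13b* lost it in 8 to 11 alternatives. *Arnt*, *Bach2*, *Cd79a*, *Ciita*, *Fasn*, *H2-Eb1*, *Hk2*, *Irf8*, *Jchain*, *Ly6c1*, *Mtf1*, *Pdia3*, *Pdia4*, *Prdm1*, *Sdc1*, *Slamf7*, *Slc30a7*, *Tram2*, *Uros* and *Xbp1* lost it in 1 to 5, each when 1 library or replicate number was left out. Of the named genes that did not pass the test, 7 did so in an alternative, *Car9*, *Cd3e*, *Cd74*, *Irf4*, *Slc16a1*, *Tcf4* and *Zbtb24*. Among named genes that did not pass the test, the sign of the change turned in leave-outs, with ranges of *Atf4* from -0.112 to 0.0307, *Csf1r* from -0.0213 to 0.0420, *Hspa5* from -0.0403 to 0.0510, *Id3* from -0.0558 to 0.151, *Lck* from -0.0399 to 0.0750, *Pcna* from -0.0527 to 0.0148 and *Pttg1* from -0.0107 to 0.117. It also turned with median ratio scaling for *Hspa5* (0.0335) and *Pcna* (0.0251), and with rescaling to TPM for *Lck* (-0.0371). The cause was not tested. With 3 libraries per time point and no counts, the precision of low levels is not known.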

Other observations

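Gene lists chosen after the values were seen describe the libraries only. Among 7 genes of the hypoxia-inducible factors and their regulators, 4 rose and 3 fell. *Vhl*, whose protein marks HIF-1alpha for destruction, was 10.5, 10.2 and 9.76 FPKM at 24 h and 14.2, 14.4 and 14.5 FPKM at 48 h (0.46 ± 0.04), *Arnt*, the partner of HIF-1alpha, changed by 0.26 ± 0.05, and *Hif1an*, an oxygen-dependent inhibitor of HIF-1alpha, was 11.9, 11.6 and 12.4 FPKM at 24 h and 8.62, 8.45 and 8.36 FPKM at 48 h (-0.45 ± 0.05). The groups of *Vhl* and *Hif1an* did not overlap. Among 8 metallothionein and zinc transporter genes, 4 rose and 1 fell (2 to 4 rising over the leave-outs of 1 library or 1 replicate number, fewest without the 24 h replicate 3). Apart from *Mt1* and *Mt2* the changes were small, from -0.27 ± 0.06 for *Mtf1*, the zinc-sensing factor that switches on metallothioneins, to 0.29 ± 0.07 for the zinc exporter gene *Slc30a7*.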
